A study of Mus musculus with 2 samples.

Results

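Enucleation and organelle clearance, the last steps of red cell formation, are represented here by 10 genes (Bnip3l, Gabarapl2, Map1lc3b, Ulk1, Trim58, Xpo7, Foxo3, Ube2o, Bpgm and Trim10), taken by symbol from the 32285 genes of the table, where all 10 were found. Their transcripts were counted at the 3′ end in droplet-based single-cell libraries of 2 mouse livers, 1 labelled E18.5 and 1 labelled P180. Both livers came from Hhex-knockout hosts that had received tetraploid (4N), tdTomato-positive embryonic stem cells at the blastocyst stage. Hhex is a homeobox gene needed for liver development. The tdTomato transcript was not analysed here, so donor cells were not told apart from cells that the host still had. With 1 library per label there is no replicate and no test. All intervals below are exact 95% intervals that cover counting error only, and a difference between the libraries cannot be told apart from a difference between 2 animals or 2 preparations.

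A red cell precursor fills with haemoglobin, expels its nucleus and, as a reticulocyte, clears its mitochondria and ribosomes. Damaged or unneeded mitochondria are enclosed in membrane by autophagy: the Ulk1 kinase starts the process, ubiquitin-like proteins of the LC3 and GABARAP families (Map1lc3b, Gabarapl2) coat the membrane, and Bnip3l on the mitochondrial surface binds them. Trim58, a ubiquitin ligase that acts on the motor protein dynein, and Xpo7, a nuclear export receptor, act around nuclear condensation and loss. Ube2o is a ubiquitin-conjugating enzyme that helps to remove ribosomes, Trim10 is a ubiquitin ligase family member of the erythroid line, and Foxo3 is a transcription factor that turns on antioxidant and autophagy genes. Bpgm makes bisphosphoglycerate, which lowers the affinity of haemoglobin for oxygen.

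The library labelled E18.5 held 9871 barcodes and 37709972 unique molecular identifiers (UMIs, counted molecules), and the library labelled P180 held 9771 barcodes and 90128038 UMIs. Their cell makeup ran against the labels, since a late fetal liver is a blood-forming organ. After filtering, 61 of 4543 cells with the E18.5 label were erythroid-like and 1310 were B cell-like, while 6935 of 8847 cells with the P180 label were erythroid-like. No cluster of either library was named hepatocyte-like. The libraries are therefore called by their labels throughout, and no direction with age is read from them. They shared 28 barcodes. Median mitochondrial shares of UMIs per barcode were 16.7% and 0.655%.

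The genes lie on different chromosomes of the mm10 build except for 3 pairs. Bnip3l (ENSMUSG00000022051; chr14:66985239-67008877, minus strand) and Xpo7 (ENSMUSG00000022100; chr14:70654246-70766628, minus) are on chromosome 14. Gabarapl2 (ENSMUSG00000031950; chr8:111940703-111953612, plus) and Map1lc3b (ENSMUSG00000031812; chr8:121590361-121598760, plus) are on chromosome 8. Trim58 (ENSMUSG00000037124; chr11:58640465-58652404, plus) and Ube2o (ENSMUSG00000020802; chr11:116537740-116581447, minus) are on chromosome 11. Ulk1 (ENSMUSG00000029512; chr5:110784488-110810097, minus), Foxo3 (ENSMUSG00000048756; chr10:42181841-42276755, minus), Bpgm (ENSMUSG00000038871; chr6:34476207-34505613, plus) and Trim10 (ENSMUSG00000073400; chr17:36869574-36877833, plus) stand alone. Xpo7 overlaps Npm2 on its own strand and Dok2 on the other, and Map1lc3b overlaps Zcchc14 on the other strand. Npm2 held 13 and 314 UMIs in the libraries labelled E18.5 and P180, against 3043 and 90141 for Xpo7. Zcchc14 held 1420 and 201 UMIs, against 6970 and 25816 for Map1lc3b. How reads from the overlaps were assigned was not tested.

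The upstream regions of Trim10 and Trim58, low outside red cell precursors, and of Gabarapl2, present in every class, are shown to set genes of unlike range side by side. Each is the 250 bases before the RefSeq start (GRCm38.p6, plus strand) at chr17:36869324-36869573, chr11:58640215-58640464 and chr8:111940453-111940702. Capitals mark a match to the GATA motif AGATAA, here on the reverse strand.

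Trim10: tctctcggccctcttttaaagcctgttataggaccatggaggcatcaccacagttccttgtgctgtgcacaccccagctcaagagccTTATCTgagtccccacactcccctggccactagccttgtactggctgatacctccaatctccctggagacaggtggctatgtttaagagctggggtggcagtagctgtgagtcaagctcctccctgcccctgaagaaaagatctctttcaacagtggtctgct
Trim58: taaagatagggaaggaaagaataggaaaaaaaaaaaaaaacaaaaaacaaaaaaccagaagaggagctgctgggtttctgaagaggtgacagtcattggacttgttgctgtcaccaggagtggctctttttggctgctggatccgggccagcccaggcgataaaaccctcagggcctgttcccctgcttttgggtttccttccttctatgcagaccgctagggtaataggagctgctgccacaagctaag
Gabarapl2: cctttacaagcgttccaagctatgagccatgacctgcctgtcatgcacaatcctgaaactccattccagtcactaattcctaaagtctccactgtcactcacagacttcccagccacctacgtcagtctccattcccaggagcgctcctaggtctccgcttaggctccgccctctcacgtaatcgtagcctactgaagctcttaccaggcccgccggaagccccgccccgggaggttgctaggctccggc

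The Trim10 match lies 163 bases before the start. RefSeq upstream regions were matched for 7 of the 10 genes. Both strands were searched for AGATAA, for the forkhead motif TGTTTAC and for the KLF motif CCNCACCC. Matches stood in 1 (Trim10), 0 and 1 (Map1lc3b) of the 7 regions, and in 9.99%, 3.17% and 14.9% of 32851 upstream regions of the same length. The 2 matches lie in different genes and do not overlap. The E-box CANNTG stood in 2 of the 7 regions and in 66.2% of all, and TATAAA in 0 and in 12.4%. A match is not evidence of binding.

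Across cell classes of the library labelled P180, 9 of the 10 genes stood at least 2-fold higher in erythroid-like cells than in all other cells, and none lower. Of 13021 genes, 7.50% stood that much higher. Levels here are CPM, the UMIs of a gene in 1000000 UMIs of the cells. The median log2 ratio was 3.09 for the 10 genes and -2.47 for all genes. Clusters were made without these 10 genes, but from other genes of the same cells, so this contrast is a description.

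Bnip3l, the mitochondrial receptor, stood at 524 CPM (517 to 531) in erythroid-like cells and 155 in the others, a log2 ratio of 1.75. Gabarapl2 stood at 301 and 94.6 CPM (1.67). Map1lc3b stood at 365 and 196 CPM (0.90) and was the member under 2-fold. Ulk1, the kinase, stood at 68.1 and 17.9 CPM (1.93). These 4 autophagy genes were measured in every class. With UMIs that are not haemoglobin as the total, the median of all genes moved from -2.47 to -1.02 and that of the 10 genes from 3.09 to 4.53. Bnip3l then stood at 3.20, Map1lc3b at 2.34 and all 10 genes were at least 2-fold higher, against 17.3% of genes.

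Larger ratios were seen for the ubiquitin genes. Trim10 stood at 513 CPM in erythroid-like cells and 18.4 CPM in the others (4.80), Trim58 at 41.4 and 2.44 CPM (4.09), and Ube2o at 383 and 24.6 CPM (3.96). Xpo7, the export receptor, stood at 1764 and 101 CPM (4.13), Bpgm at 958 and 39.9 CPM (4.59), and Foxo3 at 522 and 113 CPM (2.21). Neutrophil-like cells of the same library are set beside them, as a class not known for Trim10. There Trim10 stood at 15.4 CPM, with a UMI in 11.3% of 1066 cells of 16435 median UMIs, against 83.4% of 6935 erythroid-like cells of 5238 median UMIs. Thinned to 1000 UMIs per cell, the shares were 1.23% and 40.0%. Bpgm stood at 35.3 CPM in neutrophil-like cells. Whether levels of that order in other classes of this library are background or expression was not tested.

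In the library labelled E18.5 the same division was seen with fewer cells. Trim10 had 65 UMIs in the 61 erythroid-like cells (240 CPM) and 2 in all the other classes, 1 in T cell-like and 1 in endothelial-like cells. Its 0 UMIs in 1310 B cell-like cells allow a level of up to 0.461 CPM by the limit of 3 counts, and 0.567 CPM by the exact interval. Trim58 had 1 UMI in erythroid-like cells and 3 in all 4543 cells. Bpgm stood at 978 CPM (864 to 1103) in erythroid-like cells, and between 4.07 CPM in monocyte-like and 61.4 CPM in unnamed clusters elsewhere. Bnip3l stood at 520 CPM in erythroid-like cells, and the next class was cholangiocyte-like at 208 CPM, whose intervals did not overlap. Ube2o stood at 196 CPM, against 30.1 CPM in plasma cell-like cells, the next class.

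For Map1lc3b, Ulk1 and Foxo3 the order of classes there depended on the total. On CPM, Map1lc3b stood at 786 CPM in neutrophil-like cells (1071 UMIs in 399 cells) and at 251 CPM (195 to 318) in erythroid-like cells. Neutrophil-like cells of the other library had 190 CPM. Ulk1 stood at 64.1 CPM in cholangiocyte-like and 63.9 in neutrophil-like cells, which do not differ beyond counting error, and at 29.5 CPM (12.7 to 58.2) in erythroid-like cells. Foxo3 stood at 343 CPM in monocyte-like and 222 in neutrophil-like cells, against 95.9 CPM (62.7 to 141) in erythroid-like cells. Over UMIs that are not haemoglobin, erythroid-like cells were not below these classes. Map1lc3b stood at 919 (714 to 1166) against 792 in neutrophil-like cells, Ulk1 at 108 (46.7 to 213) against 64.3, and Foxo3 at 352 (230 to 515) against 343 in monocyte-like cells, with intervals that overlap. In the heat map of classes the erythroid-like rows stand out for Trim10, Bpgm, Ube2o and Xpo7 in both libraries.

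**Figure D1:**
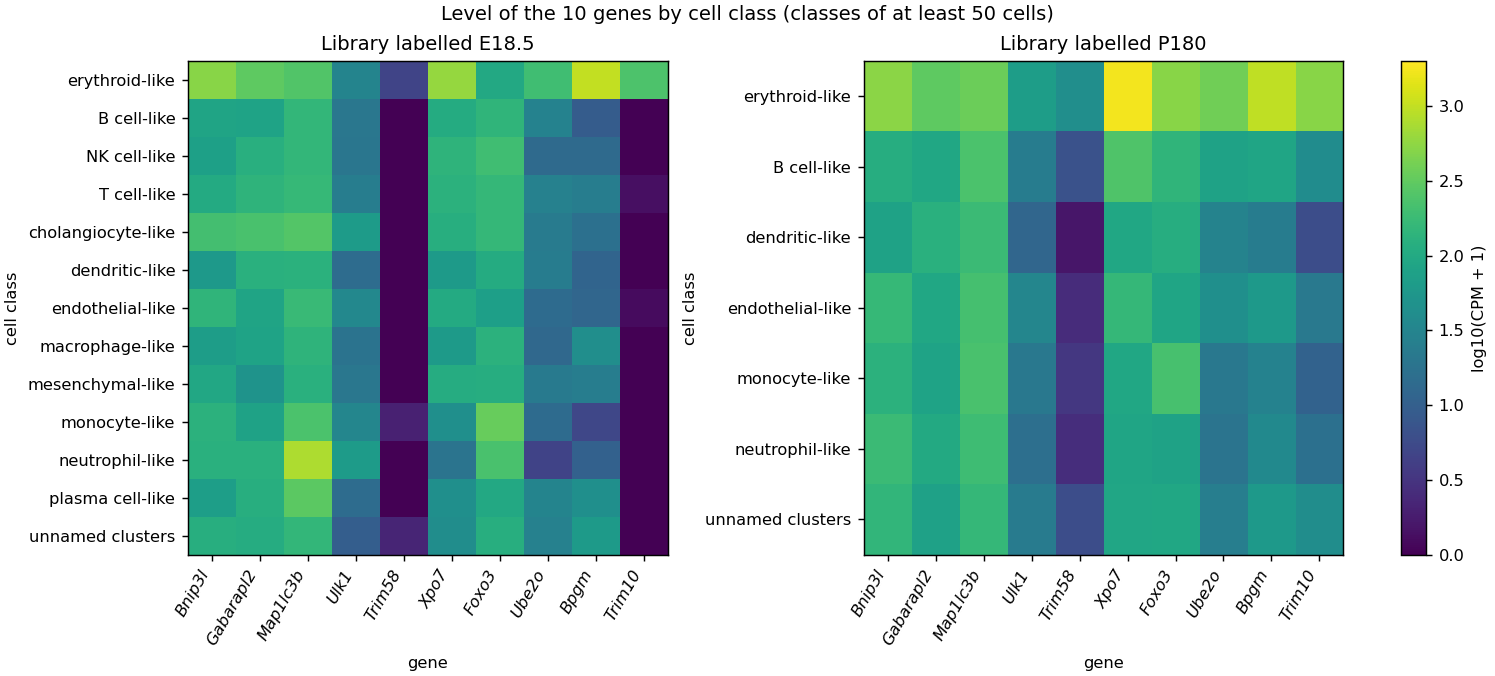
Level of the 10 genes (columns) in each cell class (rows) of the library labelled E18.5 (left) and of that labelled P180 (right), as log10(CPM + 1), for classes of at least 50 cells. Erythroid-like cells had 240 and 513 CPM of Trim10, while Map1lc3b reached 786 CPM in neutrophil-like cells with the E18.5 label.

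Erythroid-like cells of the 2 libraries were then compared. They held 55 of 1189 E18.5-labelled and 5047 of 5536 P180-labelled barcodes with 50% haemoglobin or more, so most such E18.5-labelled barcodes are left out. On CPM, 5 of the 10 genes were higher by 2-fold or more in the P180-labelled cells and 0 were lower by as much. Of 8323 genes, 29.0% stood that much higher and 33.8% that much lower. Foxo3 stood at 95.9 CPM in E18.5-labelled and 522 CPM in P180-labelled cells (log2 ratio 2.44, 1.89 to 3.06), and Xpo7 at 590 and 1764 CPM (1.58, 1.36 to 1.81). Trim10 stood at 240 and 513 CPM (1.10, 0.75 to 1.47). Ulk1 (1.21, 0.23 to 2.42) rests on 8 UMIs, and Trim58 (11.2-fold, 2.01 to 444) on 1 UMI, with the E18.5 label. Bnip3l (0.01, -0.23 to 0.26), Gabarapl2 (0.01, -0.30 to 0.34) and Bpgm (-0.03, -0.20 to 0.15) were level within counting error.

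This count depends on the total used. Over UMIs that are not haemoglobin, 3 genes were higher by 2-fold or more, against 21.2% of genes, and 0 lower, against 40.5%. Among the 61 cells, 33.1% of UMIs that were not haemoglobin were mitochondrial, against 1.93% with the P180 label. Of the 61 cells, 21.3% carried a UMI of a B cell marker, against 3.89% with the P180 label. Markers of other cells, not of B cells alone, went the other way: 70.5% of the 61 cells carried such a UMI, against 99.1%. Over UMIs that were neither haemoglobin nor mitochondrial, a total added after seeing the data, 2 of the 10 genes were higher by 2-fold or more, against 12.9% of genes, namely Foxo3 (1.48, 0.93 to 2.10) and Trim58, and 0 were lower, against 50.7%. Xpo7 then stood at 0.62 (0.40 to 0.85) and Bnip3l at -0.95. Of the 160 UMIs of Xpo7 with the E18.5 label, 35 came from 1 cell and all came from 18 cells.

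Within the library labelled P180, barcodes were divided by the haemoglobin share of their UMIs. Whether this share follows maturation was not tested. Barcodes with at least 500 UMIs, under 25% mitochondrial UMIs and any number of genes were used, and levels are CPM over UMIs that are not haemoglobin (non-haemoglobin CPM), since haemoglobin fills most of the total. All 10 genes stood at least 2-fold higher in 2193 barcodes with 75% haemoglobin or more than in 1990 barcodes with 10 to under 50%. Of 8616 genes, 7.32% stood that much higher and 67.3% that much lower. The median log2 ratio was 2.61 for the 10 genes and -1.83 for all genes. Of the 1990 barcodes, 1721 were in erythroid-like clusters and 105 in others.

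Bnip3l was higher at each step of haemoglobin share, from 370 non-haemoglobin CPM at 10 to under 25% to 656, 1541 and 2917 in the next 3 bins (25 to under 50%, 50 to under 75% and 75 to under 90%). The log2 ratio of the contrast was 2.43 (2.38 to 2.48). Gabarapl2 followed with 196, 333, 875 and 1805 non-haemoglobin CPM (2.70, 2.63 to 2.77), and Map1lc3b with 277, 432, 1106 and 2000 (2.43, 2.37 to 2.50). Ulk1 gave 48.2, 105, 222 and 314 non-haemoglobin CPM (1.92, 1.78 to 2.06). Over these 4 bins each of the 10 genes was higher at every step, with intervals that did not overlap.

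Trim58 gave 23.6, 44.9, 129 and 230 non-haemoglobin CPM over the same bins (2.65, 2.46 to 2.85). Trim10 gave 256, 615, 1577 and 2797 (2.56, 2.50 to 2.61), and Ube2o 212, 396, 1137 and 2359 (2.87, 2.80 to 2.93). Xpo7 gave 995, 1604, 5339 and 10535 non-haemoglobin CPM (2.94, 2.91 to 2.98). Foxo3 gave 521, 896, 1742 and 1946 (1.37, 1.32 to 1.43), so its last step was the smallest of the 10. Bpgm gave 321, 525, 2279 and 7718 (4.12, 4.07 to 4.17), the largest ratio of the 10 and of all 8616 genes.

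These ratios depend on the scale. On CPM over all UMIs, 3 of the 10 genes stood at least 2-fold higher, against 0.545% of all genes, while 91.0% of all genes stood that much lower. Foxo3 fell by 0.40 on the log2 scale, while the median of all genes fell by 3.60. In the last bin, 21 barcodes with 90% haemoglobin or more, Xpo7 stood at 1765 non-haemoglobin CPM (14 UMIs) and Foxo3 at 504 (4 UMIs), both below the bin before. Bpgm stood at 21057 there (167 UMIs) and Bnip3l at 6935 (55 UMIs), both above it. The plot of levels by haemoglobin share shows this turn.

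The E18.5-labelled library was unlike this for some of the genes. Its 1044 barcodes with 75% haemoglobin or more were set against 75 with 10 to under 50%, a contrast added after seeing the data, and of those 75 only 6 were in an erythroid-like cluster. Here 6 of the 8 genes with at least 50 UMIs were higher by 2-fold or more, against 7.67% of 1656 genes, and 1, Foxo3, was lower, against 87.8%. Bpgm stood at 5891 and 348 non-haemoglobin CPM (log2 4.08, 3.84 to 4.33), Bnip3l at 3146 and 317 (3.31) and Ube2o at 805 and 96.0 (3.07). Xpo7 stood at 149 and 190 (-0.35, -0.84 to 0.13) and Foxo3 at 57.3 and 139 (-1.28). Of the 79 UMIs of Xpo7 at the lower share, 35 came from 1 barcode, and the sign of its ratio without that barcode was not tested. With mitochondrial UMIs also left out of the total, 7 of the 8 were higher, against 11.1% of genes, and 0 lower, against 67.8%. Xpo7 then stood at 1.40 (0.91 to 1.88) and Foxo3 at 0.47 (-0.25 to 1.15).

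**Figure D2:**
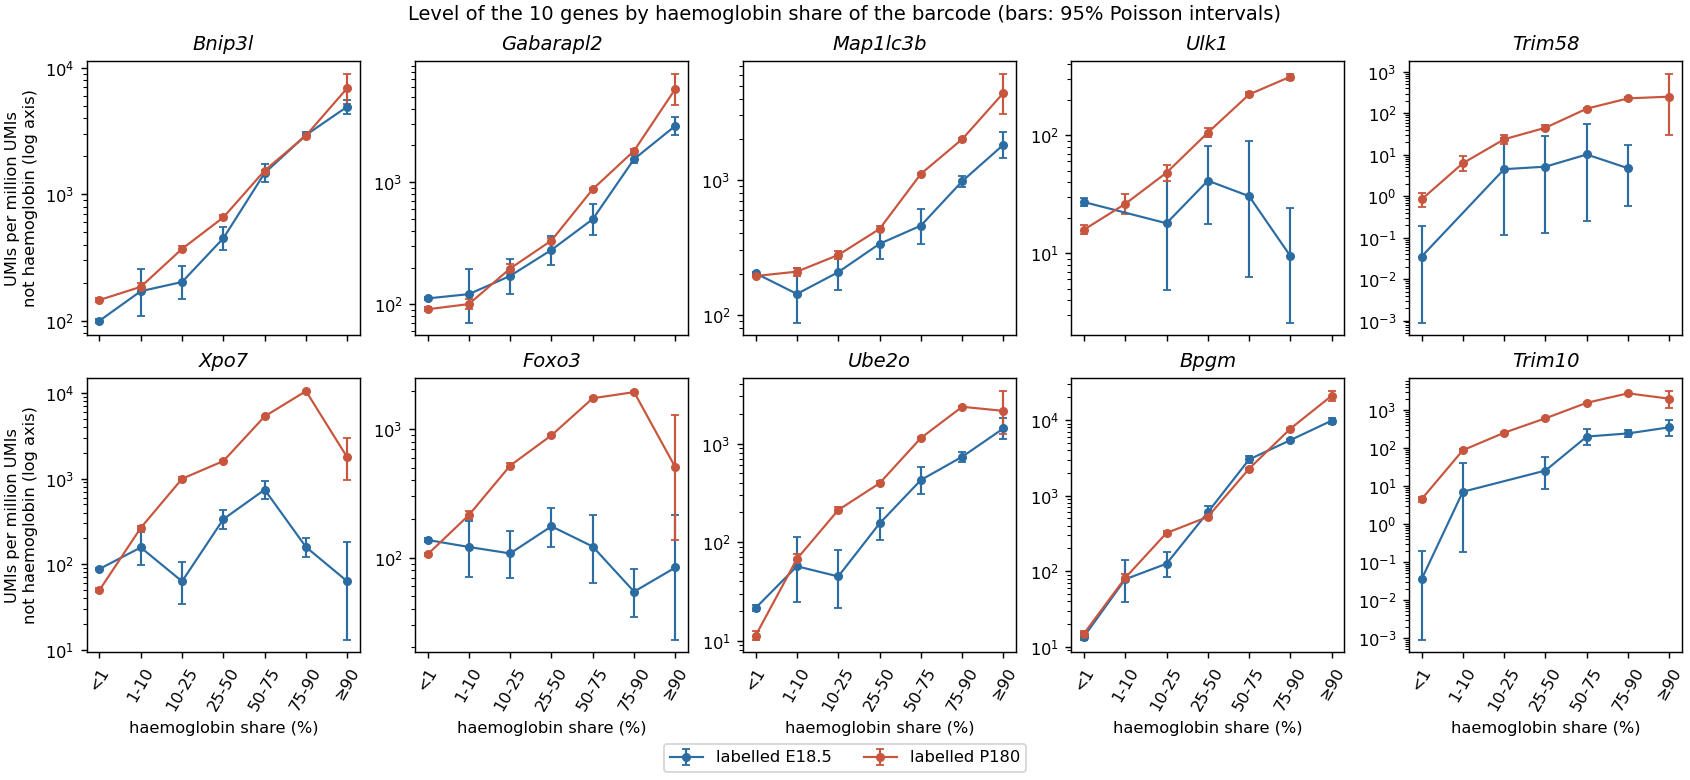
Level of each of the 10 genes (panels) in bins of haemoglobin share, as non-haemoglobin CPM on a log axis, for the libraries labelled E18.5 (blue) and P180 (red). Bars are 95% Poisson intervals, and bins with 0 UMIs are not drawn. All 10 P180-labelled lines climb to 75 to under 90%, and at 90% or more Xpo7 drops to 1765.

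Haemoglobin share and the number of genes detected were linked in the library labelled P180. Median genes were 1056, 805 and 581 in the bins from 25 to under 50% haemoglobin up to 75 to under 90%. At 10 to under 25% they were 645. Both were therefore set against each other. Over all barcodes with 50% haemoglobin or more, 7 of the 10 genes stood at least 2-fold higher in 835 barcodes with under 500 genes than in 1250 with 1000 or more, against 3.81% of 5834 genes, and 55.0% stood that much lower. The ratios ran from 0.40 (0.32 to 0.49) for Foxo3 to 2.39 (2.34 to 2.44) for Bpgm, with Xpo7 at 2.28. Bnip3l (0.99), Trim10 (0.66) and Foxo3 were under 2-fold. With the haemoglobin share held at 75% or more (645 and 114 barcodes), 0 of 10 passed. Of all genes, 2.15% stood at least 2-fold higher there and 8.08% lower, so the count is near this background. Trim58 (-0.078, -0.46 to 0.31), Bnip3l (-0.061, -0.17 to 0.05), Trim10 (-0.16, -0.27 to -0.04) and Foxo3 (-0.19, -0.33 to -0.05) were then below 0. The other members stayed above 0, and the median log2 ratio was 0.24 for the 10 genes and -0.11 for all genes.

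At a lower share of haemoglobin, bins of gene number further apart were compared, so the ratios are not of like range with those above. Among erythroid-like cells with 10 to under 50% haemoglobin, a contrast added after seeing the data, 579 cells had 200 to under 500 genes and 360 had 2000 to under 4000. Xpo7 stood at 12616 non-haemoglobin CPM in the first and 127 in the second, 99.1-fold apart (log2 6.63, 6.48 to 6.78). Ube2o stood at 2025 and 101 (4.32), Bpgm at 2402 and 157 (3.94), Trim58 at 170 and 13.5 (3.65), Ulk1 at 378 and 42.2 (3.16), and Foxo3 at 2744 and 499.5 (2.46). Bnip3l (1.48) and Trim10 (1.21) differed less, and Gabarapl2 (0.93) and Map1lc3b (0.47) were under 2-fold. Thus 8 of the 10 genes passed, against 10.9% of 5655 genes. Genes of dividing cells made up 0.473% and 1.33% of UMIs that are not haemoglobin in these cells, and Malat1, a nuclear RNA, stood at 31545 and 8487. Ribosomal protein genes made up 1.69% and 17.6%, mitochondrial UMIs 4.74% and 1.43%, and the median cell had 603 and 7928 UMIs that are not haemoglobin. The part of these differences in the result was not tested. In the same 2 bins of genes at 50% haemoglobin or more, Xpo7 stood at 13169 and 949 (822 and 144 barcodes of any class).

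At a like number of genes the haemoglobin share divided the members another way. In another contrast added after seeing the data, with 200 to under 500 genes, 633 barcodes with 75% haemoglobin or more were set against the 579 erythroid-like cells with 10 to under 50%. Map1lc3b stood at 2442 and 506 non-haemoglobin CPM (log2 2.27, 2.05 to 2.50), Bpgm at 10343 and 2402 (2.11), Gabarapl2 at 2152 and 517 (2.06, 1.83 to 2.29), Trim10 at 2539 and 1119 (1.18), and Bnip3l at 2934 and 1357 (1.11). The other 5 genes were within 2-fold. Xpo7 stood at 12205 and 12616 (-0.05, -0.10 to 0.01) and Ulk1 at 348 and 378 (-0.12, -0.44 to 0.21), both level within counting error, and Foxo3 was lower at the higher share, at 1690 and 2744 (-0.70, -0.83 to -0.57). Of 1357 genes, 14.5% stood at least 2-fold higher. The plot by genes detected shows the lines of Xpo7 and Ulk1 meeting at few genes, and those of Map1lc3b, Gabarapl2 and Bpgm staying apart.

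**Figure D3:**
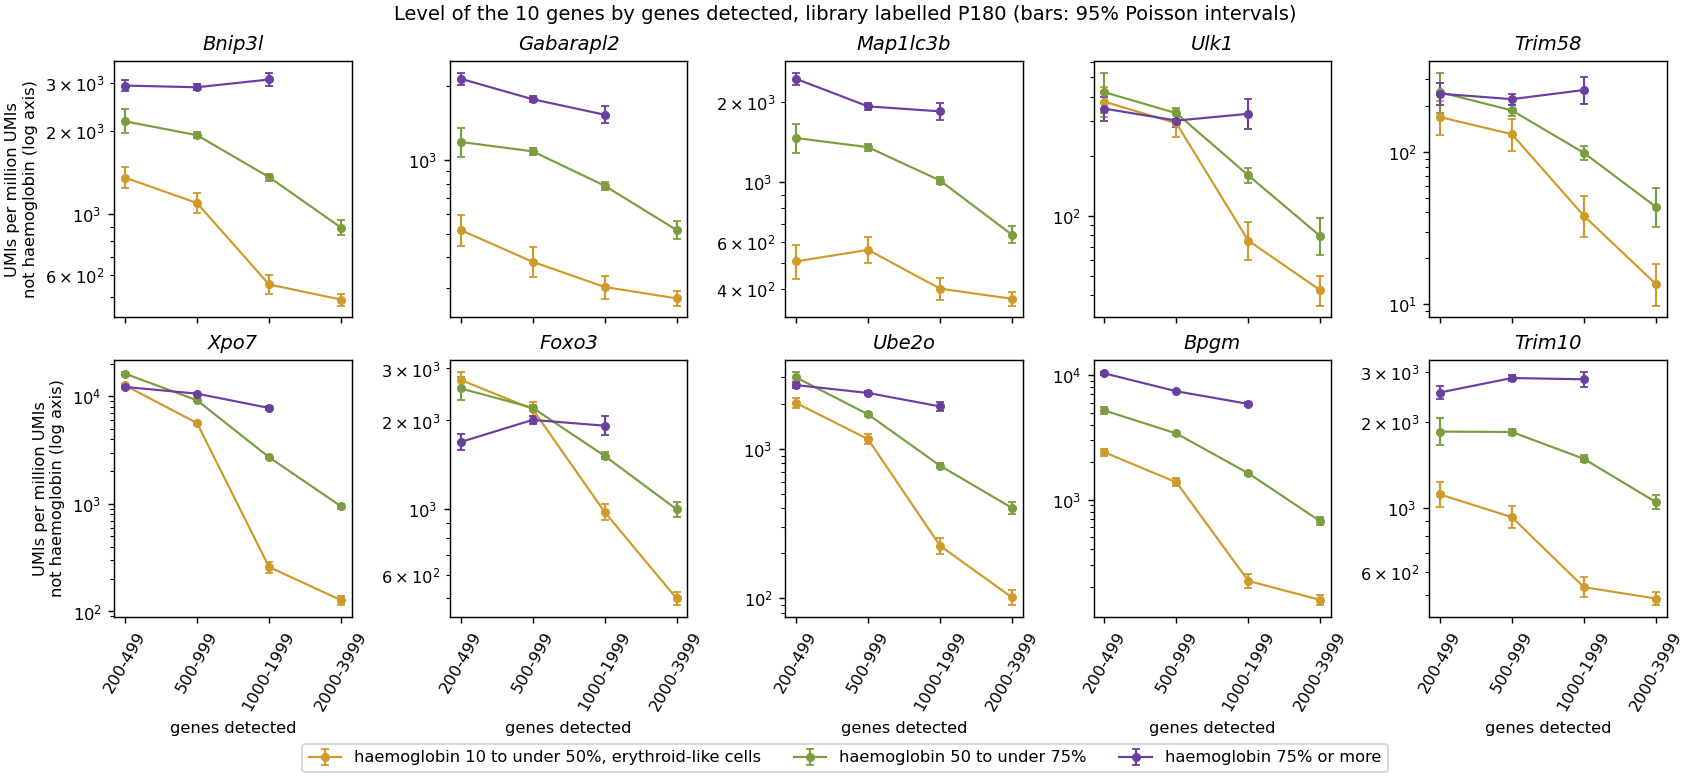
Level of each of the 10 genes (panels) by number of genes detected in the library labelled P180, at 3 ranges of haemoglobin share (colours), as non-haemoglobin CPM on a log axis with 95% Poisson intervals. At 200 to under 500 genes, Xpo7 stood at 12616 and 12205 in the lowest and highest range of share, and Gabarapl2 at 517 and 2152.

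The erythroid-like clusters of the library labelled P180 hold the erythroid-like cells compared above. They describe the same split again and are not separate evidence. Clusters 2 and 3 had nearly the same median haemoglobin share, 36.7% in both, but 2012 and 456 median genes. The 10 genes together made up 0.257% of UMIs that are not haemoglobin in the 846 cells of cluster 2 and 2.59% in the 833 cells of cluster 3. Xpo7 stood at 153 and 13008 non-haemoglobin CPM, and Bpgm at 165 and 2849. Genes of dividing cells made up 1.27% and 0.241%. Cluster 1, with the highest median share (82.2%), had 10256 non-haemoglobin CPM of Xpo7 and 9978 of Bpgm, and Gabarapl2 stood at 574 in cluster 3 and 2194 in cluster 1.

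Other genes of these pathways, from lists chosen with earlier results known, were found on both sides in the contrast by haemoglobin share, where 7.32% of all genes stood at least 2-fold higher and 67.3% lower. A list's count is to be read against these shares. Of 33 measured genes of the autophagy machinery, 9 stood at least 2-fold higher and 10 lower (median -0.14, against -1.83 for all genes), so fewer of them were lower than of all genes. Calcoco1, an autophagy receptor relative, stood at 2.94 and Atg14, a subunit of the lipid kinase complex that starts the membrane, at 2.28, while Atg7, the enzyme that activates the LC3 family, stood at -1.53 and the lysosomal membrane protein Lamp1 at -1.41. Of 9 measured mitophagy genes, 1 stood higher, the kinase Pink1 (2.94), and 5 lower, among them Phb2 (-3.65), a prohibitin of the inner mitochondrial membrane, and Tomm20 (-1.80), an import receptor of the outer one.

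Of 21 enucleation and cytoskeleton genes, 3 stood higher, with the kinase Riok3 at 2.04 and the ubiquitin ligase subunit Wdr26 at 1.47, and 15 lower, with Rac2 at -3.30 and Vim at -3.16. Of 18 ubiquitin and proteasome genes, 6 stood higher, led by the conjugating enzyme Ube2h (2.87) and the ubiquitin gene Ubb (2.64), and 5 lower, such as the proteasome subunit Psma1 (-2.36). None of 19 relatives of Xpo7 in nuclear transport stood higher and 17 stood lower. Xpo4 stood at 0.56 and Ipo9 at -5.01. Of 13 relatives of Trim58 and Trim10, 2 stood higher (Trim26 at 1.99) and 7 lower (Trim27 at -4.24). Against 67.3% of all genes, the counts of lower genes were near or below the background for the enucleation, ubiquitin and TRIM lists.

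Of 12 Foxo relatives and antioxidant genes, 5 stood higher, with catalase (Cat) at 2.60 and Gpx1 at 2.23, and 2 lower, with Sod1 at -1.14. None of 13 glycolysis genes, the pathway from which Bpgm branches, stood higher and 11 stood lower, with Pgk1 at -3.34. Of 36 nuclear-encoded mitochondrial genes 0 stood higher and 16 lower (median -0.86), a smaller share than of all genes, with Hspd1 at -2.94. Of 22 genes of dividing cells 1 stood higher, Ube2c (1.15), and 21 lower. Malat1 stood at 25823 non-haemoglobin CPM at the higher share and 11827 at the lower (1.13), and it was 1 of 2 higher among 3 nuclear-retained RNAs. Of 10 early erythroid genes, 1 stood higher, Lmo2 (1.21), and 3 lower.

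By gene number, over barcodes with 50% haemoglobin or more, the same lists are read against 3.81% of all genes higher and 55.0% lower. Of 29 autophagy genes, 2 stood at least 2-fold higher with under 500 genes, Calcoco1 (1.38) and Atg9a (1.26), and 6 lower. Pink1 (1.67) was the 1 of 7 mitophagy genes that stood higher, Xpo4 (1.16) the 1 of 14 nuclear transport genes, and Riok3 (1.02) the 1 of 20 enucleation genes. Among 17 ubiquitin genes, 3 stood higher, with Ube2h at 1.65 and Ubb at 1.51. Nuclear-encoded mitochondrial genes had 0 of 35 higher and 22 lower, near the background, and genes of dividing cells 0 of 22 higher and 21 lower.

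Haemoglobin-rich barcodes, with a share of 50% or more, numbered 1189 in the E18.5-labelled and 5536 in the P180-labelled library. They were unlike in kind: median genes were 92 and 698, and 1130 of the 1189 had under 200 genes, against 13 of the 5536. Among those with 200 to under 500 genes, mitochondrial UMIs made up 48.5% of UMIs that are not haemoglobin in 42 E18.5-labelled barcodes and 2.04% in 822 P180-labelled ones, and Malat1 stood at 13858 and 33756 non-haemoglobin CPM. With 100 to under 200 genes the values were 68.9% and 5.13%, and 1275 and 9363, the P180-labelled ones from 11 barcodes.

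On non-haemoglobin CPM, 6 of the 10 genes were higher by 2-fold or more in P180-labelled barcodes and 0 were lower, while 69.1% of 7014 genes stood that much higher and 4.52% lower. The share of members called is near this background. Xpo7 stood at 251 and 6892 in E18.5-labelled and P180-labelled barcodes (log2 4.78, 4.54 to 5.03), Foxo3 at 68.5 and 1802 (4.72, 4.27 to 5.21), and Trim10 at 248 and 1943 (2.97, 2.73 to 3.22). Ulk1 (4.34) and Trim58 (4.92) rest on 7 and 3 UMIs with the E18.5 label. Ube2o stood at 739 and 1504 (1.02). Bnip3l stood at 2857 and 1957 (-0.55), Gabarapl2 at 1475 and 1157 (-0.35), Bpgm at 5394 and 3921 (-0.46) and Map1lc3b at 957 and 1376 (0.52). The sign of these last 4 was not stable. With under 500 genes in both libraries, a setting added after seeing the data, Bpgm stood at 0.71 and Gabarapl2 at 0.35. With a share of 75% or more they stood at 0.40 and 0.11. Map1lc3b stood at -0.47 with a median of ratios.

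When mitochondrial UMIs were left out of the total as well, the members divided. Then 5 were higher by 2-fold or more in P180-labelled barcodes, against 29.2% of 7001 genes, and 4 at least 2-fold lower, against 25.1%. The higher ones were Trim58 (3.22, 1.67 to 5.49), Xpo7 (3.07), Foxo3 (3.01), Ulk1 (2.64) and Trim10 (1.27). The lower ones were Bnip3l (-2.25), Bpgm (-2.17), Gabarapl2 (-2.06) and Map1lc3b (-1.18), while Ube2o turned from 1.02 to -0.68 (-0.82 to -0.54). The order of the 10 ratios is the same on each total, since a total shifts all of them alike. The plot of ratios on 3 totals shows Ube2o between the higher and lower genes, nearer to Map1lc3b than to Trim10.

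**Figure D4:**
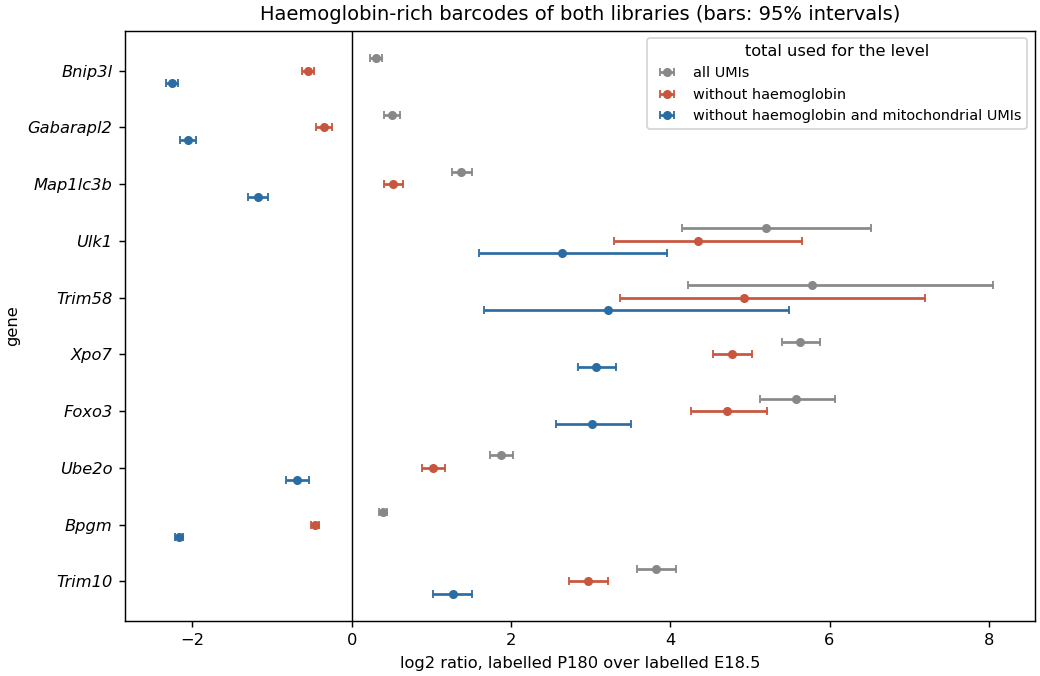
Log2 ratio of each of the 10 genes (rows) in haemoglobin-rich barcodes, library labelled P180 over that labelled E18.5, on 3 totals (colours), with exact 95% intervals. Xpo7 stood above 0 on each total (3.07 to 5.63), and Bnip3l crossed it (0.31 on all UMIs, -2.25 without haemoglobin and mitochondrial UMIs).

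Shares among the UMIs of the 10 genes need no total from outside. However, a larger share of any gene leaves less for the others. Each gene is compared with itself between libraries, since these counts are not per length. In haemoglobin-rich barcodes with the E18.5 label (6838 UMIs of the 10 genes), Bpgm took 44.9% (43.7 to 46.1), Bnip3l 23.8%, Gabarapl2 12.3% and Xpo7 2.09% (1.77 to 2.46). With the P180 label (232007 UMIs), Bpgm took 18.7%, Bnip3l 9.34%, Gabarapl2 5.52% and Xpo7 32.9% (32.7 to 33.1). Foxo3 took 0.570% and 8.60%, Trim10 2.06% and 9.27%, and Ube2o 6.16% and 7.17%.

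These shares moved with the number of genes. The 13 haemoglobin-rich barcodes with under 200 genes of the library labelled P180 had 140 UMIs of the 10 genes, of which Bpgm took 47.1% (38.7 to 55.8), Xpo7 4.29% (1.59 to 9.09) and Foxo3 0.714% (0.018 to 3.92). The 1130 such barcodes of the other library had 46.6%, 0.513% (0.349 to 0.727) and 0.331%, so Bpgm overlapped and Xpo7 did not. In turn, the 42 E18.5-labelled barcodes with 200 to under 500 genes had 14.2% Xpo7 (11.4 to 17.3) and 9.86% Trim10, against 35.8% and 6.46% in the 822 P180-labelled ones. Their Xpo7 and Foxo3 (2.08% against 5.17%) shares were still lower than with the P180 label, beyond counting error. However, the 82 UMIs of Xpo7 came from 13 of the 42 barcodes and the 12 of Foxo3 from 4. The intervals treat UMIs as independent and may be too narrow here. How far gene number or mitochondrial content accounts for the difference between the libraries was not tested. The stacked shares by haemoglobin bin show both patterns.

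**Figure D5:**
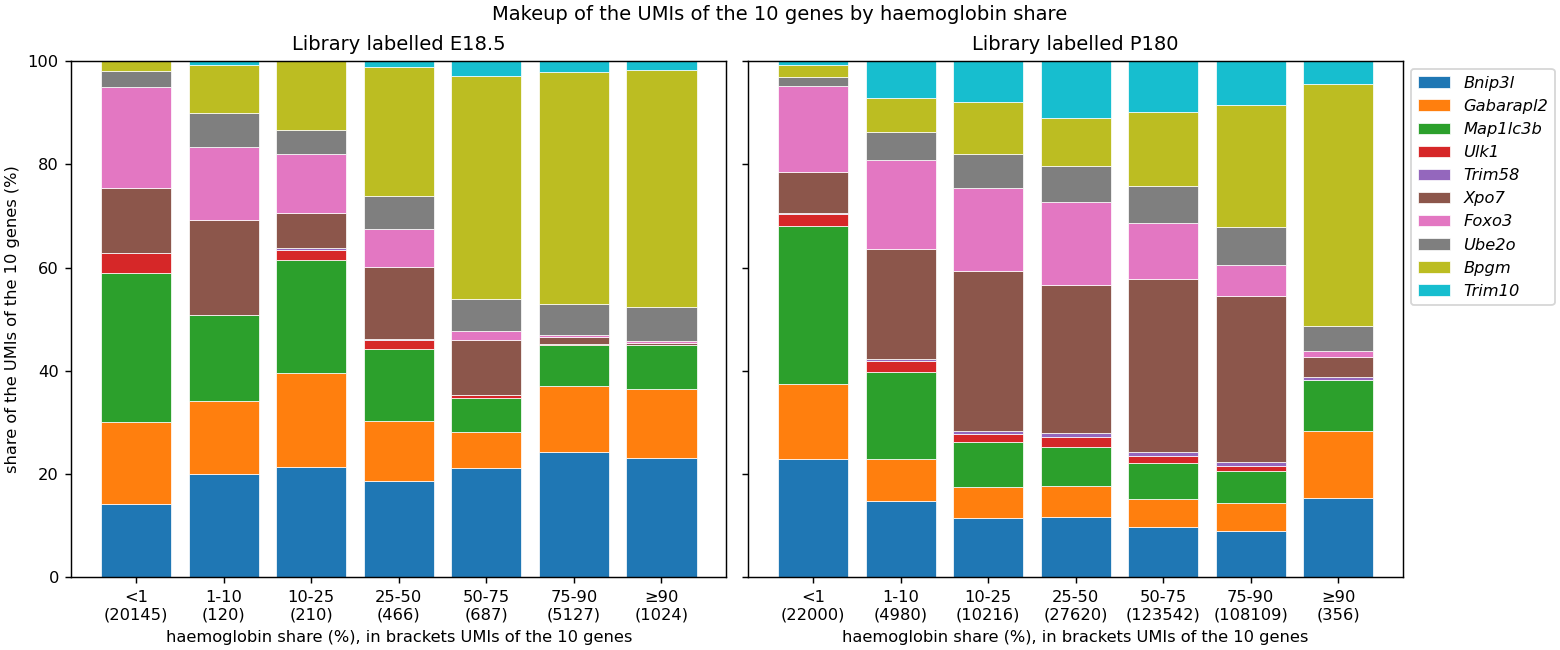
Share of each of the 10 genes (colours) in their summed UMIs by bin of haemoglobin share, for the library labelled E18.5 (left) and that labelled P180 (right), with the summed UMIs in brackets. Bpgm took 44.9% of the UMIs of haemoglobin-rich barcodes in the E18.5-labelled library and 18.7% in the P180-labelled one, and Xpo7 2.09% and 32.9%.

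Genes with the pattern most like each member were sought over the 44 clusters of at least 50 cells of both libraries, by Pearson correlation of log2(CPM + 10). These values share libraries and depth, and are a description. Trim10 was most like Epb42, a red cell membrane protein gene (r = 0.99). Trim58 was most like Prokr1 (0.99), Xpo7 like Tbcel (0.96), Ube2o like Ypel4 (0.96), and Bpgm and Bnip3l like Slfn14 (0.97) and Sowaha (0.94). Foxo3 was most like Azin1 and Wdr26 (0.89 for both), Gabarapl2 like Mkrn1 (0.90), Map1lc3b like Abtb1 (0.86) and Ulk1 like Cir1 (0.84). Among the members, Xpo7 and Ube2o had 0.95, and Xpo7 and Map1lc3b had 0.56.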

How the data were processed

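The authors deposited unnormalised UMI counts by gene and barcode, and the file headers name Cell Ranger 7.1.0. The submitters' processing notes also name fastp, Trimmomatic, Seurat, edgeR and mm10, without a role. The sources used here do not say whether intronic reads were counted. Cells were kept with at least 200 genes, 500 UMIs and under 25% mitochondrial UMIs. Likely doublets by Scrublet score (scanpy 1.11.5) were left out at 0.8% per 1000 barcodes (178 E18.5-labelled and 735 P180-labelled). The automatic threshold marked 79 and 0 and so failed for the P180-labelled library. Clustering was run per library (2000 variable genes without the 10 members, 30 components, 15 neighbours, Leiden resolution 1, leidenalg 0.10.2, scikit-learn 1.9.0), giving 27 and 23 clusters. A cluster took the class with the most of its markers, at least 3, among its 50 genes of highest fold; it lost its name if another class led its 10 leading genes or if 3 erythroid markers stood there. This rule was set after clusters were seen. Bins of haemoglobin share and gene number used all barcodes with at least 500 UMIs, a haemoglobin UMI and under 25% mitochondrial UMIs, with no minimum of genes and no doublet removal. Intervals are exact Poisson, binomial or conditional (scipy 1.17.1), and genes with at least 50 UMIs on 1 side entered each background. The steps were tested on simulated data.

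The members and lists were chosen with earlier results of these data known. Genes named are the 10 members, the 3 genes most like each member and the 2 highest and 2 lowest of each list with at least 200 UMIs, from which the text takes a part. Alternatives changed filters, clustering, totals, bins and minimum counts. Contrasts at like gene number or haemoglobin share, and totals without mitochondrial UMIs, were added after seeing the data.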

Additional observations from a re-analysis of the deposited data

Results flagged for a closer look

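In the library labelled E18.5 the contrast of haemoglobin share (75% or more over 10 to under 50%, on non-haemoglobin CPM) ran against that of the library labelled P180 for 4 genes, and the difference between the libraries was not tested. Xpo7 stood at -0.35 on the log2 scale (-0.84 to 0.13) against 2.94, Foxo3 at -1.28 against 1.37, Ulk1 at -1.76 (-3.85 to -0.04, 16 UMIs) against 1.92, and Trim58 at -0.18 (-3.96 to 3.61, 4 UMIs) against 2.65. Of the 79 UMIs of Xpo7 at the lower share, 35 came from 1 barcode, and its sign without that barcode was not tested. Only 6 of the 75 barcodes of the lower share were erythroid-like there, against 1721 of 1990 with the P180 label, and mitochondrial UMIs made up 73.8% of UMIs that are not haemoglobin at 75 to under 90%. Their part in the result was not tested. With mitochondrial UMIs left out of the total, Xpo7 stood at 1.40, Foxo3 at 0.47, Trim58 at 1.57 and Ulk1 at -0.01. The other 6 genes were at least 2-fold higher at the higher share, by 1.99 for Map1lc3b to 4.42 for Trim10, while 7.67% of 1656 genes were.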

How the results depend on the processing

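The counts of members at least 2-fold higher or lower stayed within 1.5 times their value in most of the settings run, from 9 to 13 for each comparison. These include counts of 0 that stayed 0. The share of all genes moved as well, so a like count is not by itself a like result. Between haemoglobin-rich barcodes, 20.9% to 87.0% of all genes stood higher over the settings. By haemoglobin share with the upper bin from 90%, 86.6% of all genes did. Counts that moved further were the following, each with the share of all genes in brackets. Between erythroid-like cells of both labels, 5 genes higher (29.0%) became 3 (21.2%) with UMIs that are not haemoglobin as the total and 2 (15.6%) with a median of ratios. They became 3 (26.9%) without cells that carry a B cell marker and 2 (12.9%) with UMIs neither haemoglobin nor mitochondrial. By haemoglobin share, 10 higher (7.32%) became 3 (0.545%) with all UMIs as the total, where Foxo3 turned to -0.40. Foxo3 also turned to -0.57 (-2.45 to 0.79) with the upper bin from 90%, 21 barcodes. By gene number, 7 higher (3.81%) became 2 (0.479%) with all UMIs and 0 (2.15%) at a share of 75% or more, where Trim58 turned to -0.078 (-0.46 to 0.31). Foxo3 and Trim10, under 2-fold by gene number, also turned in both settings (-0.44 and -0.18 with all UMIs), and Bnip3l at the higher share (-0.061). Between haemoglobin-rich barcodes, 0 lower (4.52%) became 3 (12.6%) with a mitochondrial limit of 10% and 3 (12.4%) with a median of ratios. It became 4 (25.1%) with UMIs neither haemoglobin nor mitochondrial, where Ube2o turned to -0.68. Genes under 2-fold there changed sign too: Bpgm in 4 of 13 settings (up to 0.71), Gabarapl2 and Map1lc3b in 3 each and Bnip3l in 1. Between erythroid-like cells, Bpgm, Gabarapl2, Bnip3l and Map1lc3b changed sign in 5, 5, 4 and 2 of 11. Totals act by shifting all genes: this last one moved the median of all genes from 1.82 to 0.12. Contrasts by share and by gene number without barcodes that carry markers of other cells left under 20 barcodes on 1 side and were not run. No paired analysis was possible because each label has 1 library. Depth limits Trim58 and Ulk1 with the E18.5 label, where haemoglobin-rich barcodes held 3 and 7 UMIs.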
